A study of Mus musculus with 24 samples.

Results

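The transcript levels of mouse E14 embryonic stem cells under control and pausing conditions were compared gene by gene. E14 is a line derived from the inner cells of the early mouse embryo and was grown here on gelatin in serum medium with leukaemia inhibitory factor (LIF). Pausing conditions were INK128, an inhibitor of the kinase mTOR, at 200 nM for 12 h, and the control cells were grown for the same time without it. Poly(A) RNA was sequenced from 24 libraries in 6 groups of 4, for 3 genotypes (wild type and 2 separate lines with a knockout of Smad2) as control and as paused cells. The protein SMAD2 acts below the Nodal and activin receptors, which phosphorylate it so that it enters the nucleus and controls transcription. The labels do not give how the knockout lines were made or whether each is 1 clone.

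The values analysed were 2 means of normalized counts per gene, 1 for control and 1 for paused cells, each from the authors' deposited results table for that condition. Each mean is taken to pool the genotypes, so that control and paused cells alike include cells of the Smad2 knockout lines, but which libraries entered the means is not stated. The authors normalized the tables separately. Each mean was therefore divided by the sum of its table and multiplied by 1000000, which gives a level in parts per 1000000 (ppm), and the comparison is the log2 of the paused over the control level. Of 20625 genes in either table, 19134 were in both, and the 10958 with an average of at least 5 ppm are the genes described. They hold 99.0% of the control sum and 98.9% of the paused sum. No value for a single library was analysed, so the ratios have no replicate check and no test, and a gene counts as higher or lower where its levels are at least 1.5-fold apart.

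mTOR is a kinase that reads amino acids, growth factors and energy, and in its first complex it drives protein, lipid and nucleotide synthesis while holding back autophagy and the making of lysosomes. It acts on transcripts through factors such as ATF4 (amino acid supply), HIF1 (glycolysis), the SREBP factors (sterols and fatty acids) and TFEB with TFE3 (lysosomes). Inhibiting it puts mouse embryonic stem cells and blastocysts into a reversible paused state that resembles diapause, in which the embryo waits before implantation. The comparison describes how far the transcripts of those pathways differed between the paused and the control cells.

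**Figure D1:**
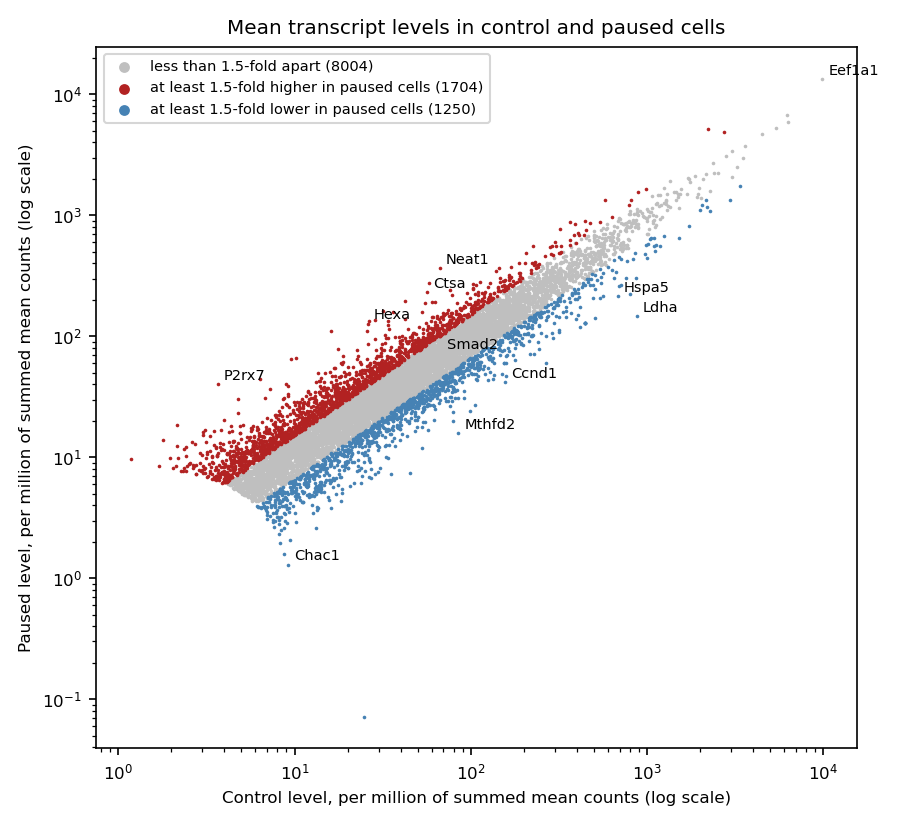
Level of each of the 10958 genes in control (horizontal) and paused cells (vertical), in ppm of the summed mean counts, both axes logarithmic. Red points, 1704 genes, lie at least 1.5-fold above the control level and blue points, 1250 genes, at least 1.5-fold below it; the lone blue point far below the rest is Trim30c.

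At least 1.5-fold higher levels were found for 1704 genes (15.6%) in paused cells and at least 1.5-fold lower levels for 1250 (11.4%), together 27.0% of the genes. The balance of the directions depends on the scaling, with 1446 higher and 1492 lower when the median gene is set to 0 and 1471 and 1458 with no scaling between the tables. At 2-fold these were 545 (4.97%) and 380 (3.47%), together 8.44%. The log2 ratio had a median of 0.06, its middle 50% of genes lay between -0.28 and 0.40, and 5% of genes lay below -0.87. The deposited standard errors of the knockout change are the only measure of spread between libraries. The root of the summed squares of the 2 tables' errors, called the combined SE below, had a median of 0.09 and was under 0.19 for 95% of the genes. Of the 2954 genes past 1.5-fold, 15 had a log2 ratio smaller than 2 combined SE. These genes were selected for a wide ratio, so a low count was built in and is no check of the ratios. The combined SE is an error of the genotype comparison on the log2 scale, so it serves only as a yardstick. The knockout change itself differed between the conditions for 275 of 19134 genes (1.44%). Of these, 235 are among the genes described, and 81 of the 235 were past 1.5-fold, against 27.0% of all described genes. Smad2 itself was at 67.8 ppm in control and 72.5 in paused cells (log2 ratio 0.10, combined SE 0.09), and in the authors' deposited tables its knockout change was -0.35 (SE 0.07) in control and -0.63 (SE 0.06) in paused cells. Those tables do not name the genotype groups they compare, and the negative sign for Smad2 was taken to mean knockout over wild type. The sign is therefore no check of the knockout, and every knockout change and every split by genotype given here rests on that reading. Just outside the abundance minimum lay Rgs9bp, at 4.20 ppm in control and 5.79 in paused cells (log2 ratio 0.46), and Lix1l, at 4.14 ppm in control and 5.86 in paused cells (log2 ratio 0.50). Just inside it lay Abcb5, at 5.04 ppm in control and 4.96 in paused cells (log2 ratio -0.02), and Gm16525, at 2.26 ppm in control and 7.75 in paused cells (log2 ratio 1.78).

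Cell identity was checked with marker genes. All 10 markers of embryonic stem cells were present in both conditions, at 280.0 to 1123 ppm in control and 268 to 996 in paused cells, and their summed level was 6431 in control and 5868 in paused cells. Markers of fibroblasts summed to 83.1 and 76.4 ppm (13 of 15 in both tables, Lum and Dcn not among them), of primitive endoderm to 22.0 and 40.4, of neuroectoderm to 14.1 and 7.38, of mesoderm to 8.18 and 7.86, and of trophoblast to 31.4 and 36.5. Of the primitive endoderm sum, Dab2 alone gave 11.8 and 27.8 ppm. The blood markers summed to 79.8 and 132 ppm, of which Laptm5 alone gave 69.7 and 125. 6 of the 11 blood markers were in both tables, and Ptprc, the common leukocyte antigen, was not among them. Each of these sums was far below that of the embryonic stem cell markers in both conditions, and their part in the results below was not tested. Fewer cells of one kind and less RNA per cell cannot be told apart in such bulk samples, and a level in ppm is relative, so a difference in total RNA per cell would not be seen.

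The ratio moved with transcript length. Across the 10517 genes with an annotated transcript, the median log2 ratio went from -0.33 in the tenth of genes with the shortest transcripts to 0.31 in the tenth with the longest, a Spearman rho of 0.31 across genes, which are not independent replicates. For GC content the rho was 0.05 and for abundance -0.08. The share of genes past 1.5-fold did depend on abundance. In the tenth of genes with the lowest levels 23.7% were higher and 13.4% lower, against 8.22% and 12.1% in the tenth with the highest. Because of the length trend, the main lists of genes below are given with their median and with the median after that trend was removed. What made long and short transcripts differ was not tested.

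**Figure D2:**
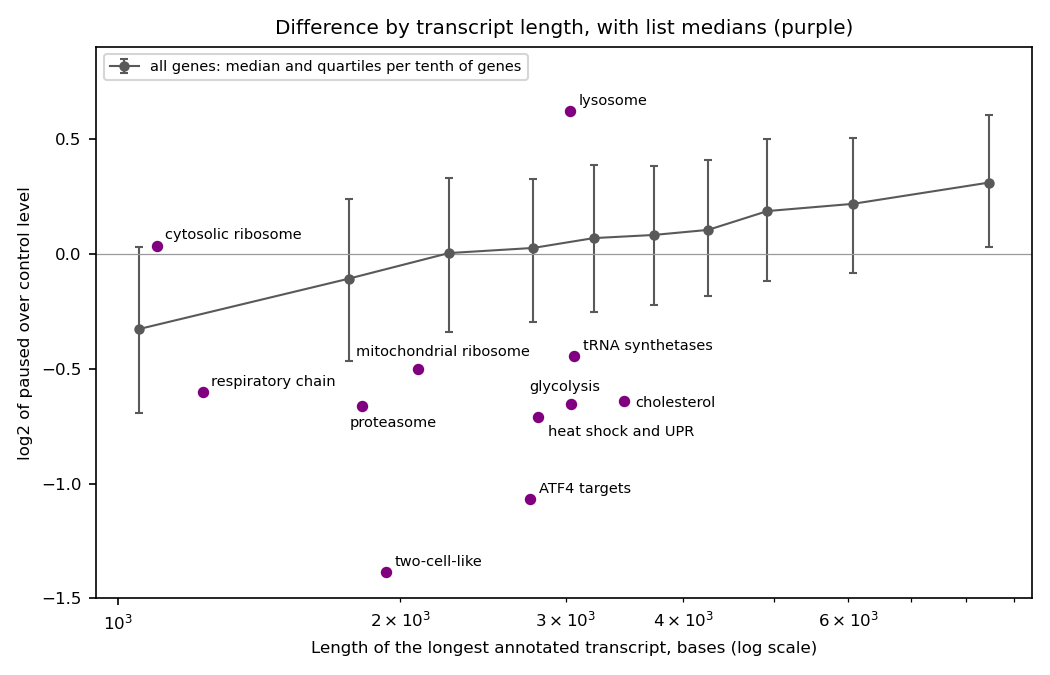
Median log2 ratio of paused over control level (vertical) in 10 equal groups of the 10517 genes by transcript length (horizontal, logarithmic), with the quartiles as bars; purple points are medians of 11 gene lists at their median length. The medians climb from -0.33 to 0.31, the proteasome and respiratory chain lists sit among short transcripts, and the ATF4 and lysosome lists lie well off the line.

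The widest differences among genes with a combined SE of at most 0.5 were led by P2rx7, an ATP-gated cation channel, at 3.67 ppm in control and 40.5 in paused cells (log2 ratio 3.46, combined SE 0.17), an 11.0-fold higher level. Patl2, an RNA-binding protein of oocytes, was at 2.15 ppm in control and 18.6 in paused cells (log2 ratio 3.11). Dmbx1, a homeobox gene, was at 1.18 ppm in control and 9.75 in paused cells (log2 ratio 3.05). Hrk, which codes for a pro-apoptotic protein that has only the BH3 domain of the Bcl2 family, was at 1.80 ppm in control and 13.9 in paused cells (log2 ratio 2.95). Ahnak2, Rnf157, Arhgef28, Uap1l1, Taf7l, Fam189a2 and Neil2 were the other protein-coding genes among the 12 widest increases, with log2 ratios from 2.43 to 2.79. P2rx7, Patl2, Dmbx1, Hrk and Taf7l had control levels under the abundance minimum, which applies to the average of the control and paused levels. These genes entered the ranking only through their paused levels, so their place in it depends partly on that filter and on low control levels. Neat1, the long noncoding RNA that scaffolds nuclear paraspeckles, was at 66.8 ppm in control and 364 in paused cells (log2 ratio 2.45, combined SE 0.16). Malat1, another nuclear noncoding RNA that is encoded beside it, was at 188 ppm in control and 400.1 in paused cells (log2 ratio 1.09).

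At the other end, Chac1, which degrades glutathione and is a textbook ATF4 target, was at 9.19 ppm in control and 1.30 in paused cells (log2 ratio -2.83, combined SE 0.21), a 7.09-fold lower level. Slc16a3, the monocarboxylate transporter that exports lactate, was at 45.4 ppm in control and 7.39 in paused cells (log2 ratio -2.62, combined SE 0.21). Ldha, the lactate dehydrogenase subunit that makes lactate from pyruvate, was at 873 ppm in control and 146 in paused cells (log2 ratio -2.58, combined SE 0.12). These 3 are followed by Vrtn and by Mthfd2, the mitochondrial folate enzyme, at 84.8 ppm in control and 15.9 in paused cells (log2 ratio -2.41). Tpi1, triose phosphate isomerase, was at 266 ppm in control and 59.9 in paused cells (log2 ratio -2.15). Ccnd2, cyclin D2, was at 18.3 ppm in control and 4.33 in paused cells (log2 ratio -2.08). Chac1 and Ccnd2 had paused levels under the abundance minimum and so entered the ranking only through their control levels. The others among the 12 widest decreases were Ccno, Arl4d, the noncoding Platr11 and the unnamed loci LOC108167978 and LOC108168644, with log2 ratios from -2.35 to -2.08. In the authors' deposited tables the knockout change of Ldha was -0.05 (SE 0.08) in control and 0.17 (SE 0.09) in paused cells, and that of Chac1 was 0.19 (SE 0.13) in control and -0.38 (SE 0.16) in paused cells, small beside the difference between conditions. That of Slc16a3 was -0.27 (SE 0.15) in control and -0.83 (SE 0.14) in paused cells.

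**Figure D3:**
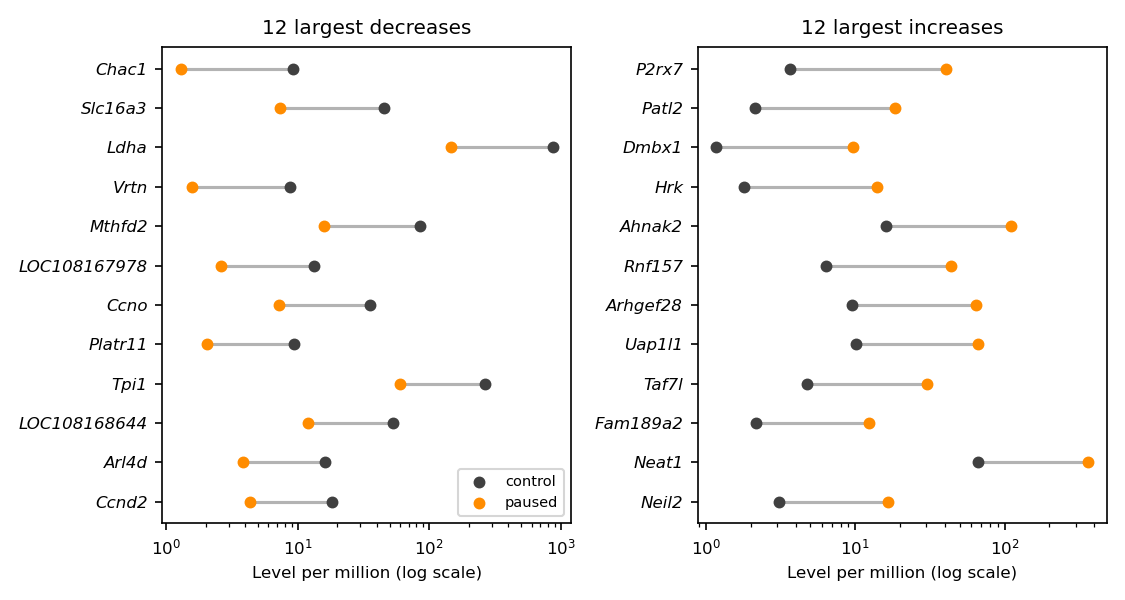
Levels in ppm (logarithmic axis) in control (dark) and paused cells (orange) of the 12 genes with the widest decrease (left) and the 12 with the widest increase (right) among those with a combined SE of at most 0.5. The decreases include Ldha, from 873 to 146, and the increases Neat1, from 66.8 to 364.

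One gene lay beyond all of these and was left out of that ranking because its combined SE was 2.25. Trim30c, of the Trim30 family, was at 24.6 ppm in control and 0.0720 in paused cells (log2 ratio -8.42). In the authors' deposited tables its knockout change was -8.64 (SE 2.02) in control and -0.43 (SE 1.01) in paused cells, which places the knockout level far below the wild-type level in control cells. If the means pool 4 wild-type and 8 knockout libraries, its log2 ratio was -9.71 in wild-type and -1.53 in knockout cells. 20 of the 10958 genes had a combined SE above 0.5, among them Krt8, Krt18, Col1a1 and the mesoderm gene T.

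Most genes with the highest levels in ppm, which are not scaled by length, differed less. Eef1a1, the elongation factor that brings aminoacyl-tRNA to the ribosome, was at 9877 ppm in control and 13404 in paused cells (log2 ratio 0.44). Eef2, which moves the ribosome along the mRNA, was at 2749.7 ppm in control and 4845 in paused cells (log2 ratio 0.82). Eef2 was past 1.5-fold and Eef1a1 was not. The chaperone genes Hsp90ab1, Hsp90aa1 and Hspa8, the mitochondrial COX1, the nucleolar Npm1 and Ncl, and the actin gene Actg1 had log2 ratios between -0.25 and 0.17.

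Gene lists by pathway are described next. Among 49 lists, the lowest medians were those of the two-cell-like state, of ATF4 targets, of the heat shock and unfolded protein response, of the proteasome and of glycolysis. The highest were those of the nuclear RNAs, of lysosomal genes and of meiotic and germline genes. This order is that before the length trend was removed. Without the trend the proteasome median was -0.38, above that of cholesterol synthesis at -0.62. The nuclear RNA list has just 5 genes, and its median of 1.07 was 0.28 with no abundance minimum. The counts in each list are to be read against 15.6% higher and 11.4% lower over all genes.

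**Figure D4:**
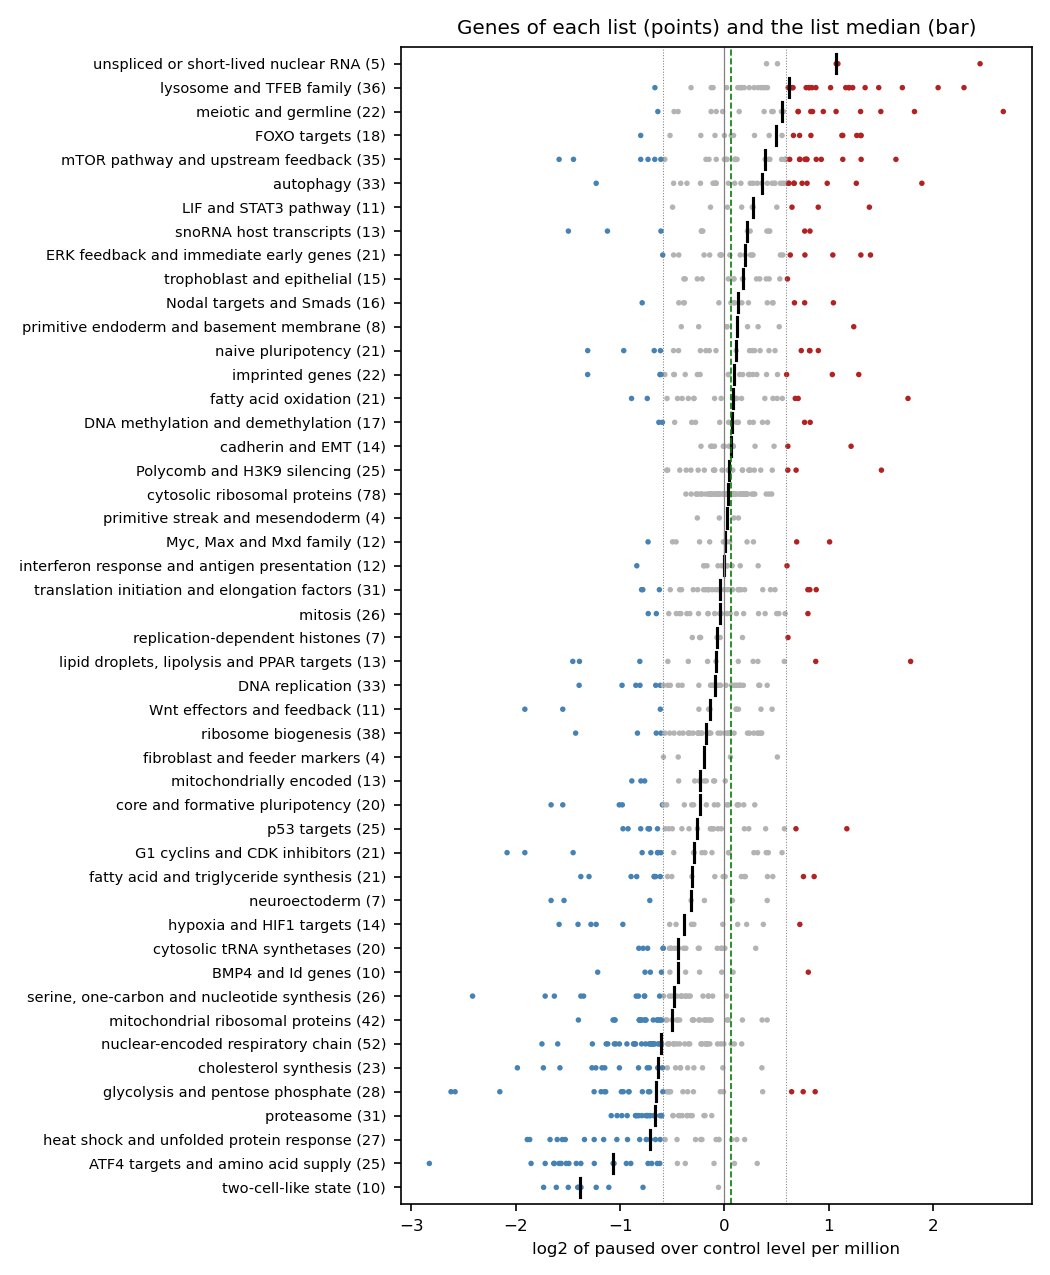
Log2 ratio of paused over control level for the genes of 48 lists with at least 4 members at the abundance minimum, given in parentheses; red and blue points are genes at least 1.5-fold higher or lower, black bars are list medians, dotted lines mark 1.5-fold and the dashed green line the median of all genes, 0.06. The median bars run from -1.39 for the two-cell-like list to 1.07 for nuclear RNAs, and the 78 cytosolic ribosomal protein genes form a tight cluster with a median of 0.04.

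ATF4 is a transcription factor whose translation is controlled by amino acid stress and by mTOR, and its targets import and make amino acids. Of its 25 listed genes at the minimum, 20 were lower (80.0%) and 0 higher, with a median of -1.07 and of -1.22 after the length trend was removed. The transcript of Atf4 itself was at 159.6 ppm in control and 117 in paused cells (log2 ratio -0.45), short of 1.5-fold. The serine pathway was low throughout, with its first enzyme gene Phgdh at 91.3 ppm in control and 35.2 in paused cells (log2 ratio -1.38, combined SE 0.11). Psat1, the aminotransferase of the next step, was at 245 ppm in control and 79.1 in paused cells (log2 ratio -1.63). Psph, the phosphatase that releases serine, was at 25.1 ppm in control and 7.64 in paused cells (log2 ratio -1.72). Proline synthesis showed the same in Pycr1, at 14.6 ppm in control and 5.20 in paused cells (log2 ratio -1.49), and in Aldh18a1, at 56.4 ppm in control and 30.3 in paused cells (log2 ratio -0.90). Cth, which makes cysteine from cystathionine, was at 76.3 ppm in control and 26.7 in paused cells (log2 ratio -1.52).

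Among the transporters of the list, the cystine carrier gene Slc7a11 was at 24.8 ppm in control and 10.5 in paused cells (log2 ratio -1.25). Slc7a3, a carrier of cationic amino acids, was at 159 ppm in control and 59.6 in paused cells (log2 ratio -1.42). Slc7a1, another cationic carrier, was at 113 ppm in control and 54.3 in paused cells (log2 ratio -1.06). The neutral amino acid carrier Slc1a4 was at 23.2 ppm in control and 7.85 in paused cells (log2 ratio -1.56). Slc7a5, the light chain of the large neutral amino acid carrier, was at 223 ppm in control and 116 in paused cells (log2 ratio -0.94), while its heavy chain Slc3a2 was at 178 ppm in control and 138 in paused cells (log2 ratio -0.38) and did not reach 1.5-fold. Slc38a2, a carrier of small neutral amino acids, was at 468 ppm in control and 299.8 in paused cells (log2 ratio -0.64). Trib3, a pseudokinase that feeds back on ATF4, was at 20.7 ppm in control and 5.74 in paused cells (log2 ratio -1.85, combined SE 0.15). Ddit4, an inhibitor upstream of mTOR, was at 52.9 ppm in control and 17.6 in paused cells (log2 ratio -1.58). Asns, asparagine synthetase and a common readout of ATF4, stood apart at 231 ppm in control and 247 in paused cells (log2 ratio 0.10, combined SE 0.11). Ddit3, a stress factor downstream of ATF4, was at 8.56 ppm in control and 10.6 in paused cells (log2 ratio 0.31), so not all members went the same way.

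Where ATF4 binds, the amino acid response element is often written TTGCATCA. This string, on either strand, was found in the promoter window of 5 of 21 list genes with a window in the RefSeq table (GRCm38.p6; 250 bases before to 50 after the start). They were Chac1, Slc7a11, Slc1a4, Pycr1 and Herpud1, and each was lower in paused cells, Herpud1 at 12.5 ppm in control and 4.04 in paused cells (log2 ratio -1.64). The share was 0.754% over the 8352 described genes with a window and 0.895% over all 32851 windows. The median log2 ratio of the 5 was -1.56, and that of the 16 without the string was -0.71. Another string, CCAAT on either strand, split the same 21 genes about as widely. The median was -1.38 in the 15 genes with CCAAT and -0.51 in those without, so the contrast was not particular to TTGCATCA. Stretches of 100 bases before the start are shown for 4 of them, since they hold the string in genes with wide decreases, with the string or its complement in capitals; the string of Slc1a4 lay elsewhere in its window.
Chac1 (chr2:119351003-119351102, plus strand): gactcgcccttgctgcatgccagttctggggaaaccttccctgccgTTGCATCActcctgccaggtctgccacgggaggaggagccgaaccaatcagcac
Herpud1 (chr8:94386271-94386370, plus strand): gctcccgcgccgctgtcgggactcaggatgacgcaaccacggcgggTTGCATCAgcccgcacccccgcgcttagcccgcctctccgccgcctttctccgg
Pycr1 (chr11:120643798-120643897, minus strand): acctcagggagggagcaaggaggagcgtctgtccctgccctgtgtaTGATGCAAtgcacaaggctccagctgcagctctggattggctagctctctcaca
Slc7a11 (chr3:50443626-50443725, minus strand): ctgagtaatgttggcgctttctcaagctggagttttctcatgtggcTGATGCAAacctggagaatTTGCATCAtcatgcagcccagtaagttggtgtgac
Slc7a11 carries the string 2 times, once on each strand. A match is a string of letters and no evidence of binding.

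Transfer RNA synthetases, which load amino acids onto tRNA and include ATF4 targets, were lower to a smaller degree. Of 20 cytosolic genes, 5 were lower (25%) and 0 higher, with a median of -0.45 before and after removal of the length trend, after which 3 were lower. Yars, for tyrosine, was at 184 ppm in control and 104 in paused cells (log2 ratio -0.82, combined SE 0.08). Cars, for cysteine, was at 122 ppm in control and 70.9 in paused cells (log2 ratio -0.78). Aars, for alanine, was at 446 ppm in control and 267 in paused cells (log2 ratio -0.74). At the other end Qars, for glutamine, was at 193 ppm in control and 237 in paused cells (log2 ratio 0.30) and Vars, for valine, at 368 ppm in control and 369 in paused cells (log2 ratio 0.00). The same response element letters were in the windows of Aars, Iars, Tars and Yars, 4 of 12 genes with a window.

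Serine, folate and nucleotide synthesis are linked because serine gives the one-carbon units that build purines and thymidine. In this list 10 of 26 genes were lower (38.5%) and 0 higher, with a median of -0.48 and of -0.55 without the length trend. Phgdh, Psat1 and Psph belong to this list too and were already counted among the ATF4 targets, so the 2 lists are not separate results. The mitochondrial Mthfd2 was furthest down, as given above, and its partner Shmt2 was at 185 ppm in control and 105 in paused cells (log2 ratio -0.82). The cytosolic Mthfd1 was at 349 ppm in control and 313 in paused cells (log2 ratio -0.16), and so short of 1.5-fold. Prps2, which makes the ribose donor of all nucleotides, was at 74.2 ppm in control and 29.1 in paused cells (log2 ratio -1.35), and its paralog Prps1 was at 204 ppm in control and 154 in paused cells (log2 ratio -0.41). Among the purine enzymes, Pfas was at 235 ppm in control and 138 in paused cells (log2 ratio -0.76) and Paics at 620.4 ppm in control and 629 in paused cells (log2 ratio 0.02). Umps, the last enzyme of uridine monophosphate synthesis, was at 169 ppm in control and 99.5 in paused cells (log2 ratio -0.77).

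Glycolysis turns glucose into pyruvate, and the pentose phosphate pathway branches from it to make ribose and NADPH. Of 28 genes at the minimum, 15 were lower (53.6%) and 3 higher (10.7%), with a median of -0.65 and of -0.70 without the length trend. Their summed level was 14055 ppm in control and 8742 in paused cells. Among the lower genes, Pkm, the pyruvate kinase gene, was at 2941 ppm in control and 1337 in paused cells (log2 ratio -1.14, combined SE 0.06). Eno1, enolase, was at 2197 ppm in control and 1165 in paused cells (log2 ratio -0.91). Pgam1, phosphoglycerate mutase, was at 1001 ppm in control and 441 in paused cells (log2 ratio -1.18). Aldoa, aldolase, was at 1122 ppm in control and 573 in paused cells (log2 ratio -0.97). Pfkl, the liver form of phosphofructokinase, was at 251 ppm in control and 105 in paused cells (log2 ratio -1.25), whereas its relatives Pfkm and Pfkp had log2 ratios of -0.40 and -0.35. Gapdh, often taken as a reference gene, was at 999 ppm in control and 699 in paused cells (log2 ratio -0.52).

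The 3 genes of the list that were higher are isoforms of genes that were not. Ldhb, the lactate dehydrogenase subunit of oxidative tissues, was at 167 ppm in control and 306 in paused cells (log2 ratio 0.87, combined SE 0.12), against the decrease of Ldha. Slc2a3, a glucose transporter, was at 986 ppm in control and 1662 in paused cells (log2 ratio 0.75), whereas Slc2a1 was at 564 ppm in control and 392 in paused cells (log2 ratio -0.53). Hk1, hexokinase 1, was at 59.0 ppm in control and 92.1 in paused cells (log2 ratio 0.64), whereas Hk2 was at 352 ppm in control and 240.3 in paused cells (log2 ratio -0.55). In the pentose phosphate branch G6pdx was at 69.1 ppm in control and 40.1 in paused cells (log2 ratio -0.79), Tkt at 321 ppm in control and 196 in paused cells (log2 ratio -0.72) and Pgls at 29.9 ppm in control and 29.1 in paused cells (log2 ratio -0.04). Targets of HIF1, the oxygen-sensitive factor that also drives glycolytic genes, numbered 14 at the minimum, of which 5 were lower (35.7%) and 1 higher, with a median of -0.39. Hif1a was at 175 ppm in control and 202 in paused cells (log2 ratio 0.21). Higd1a, a mitochondrial protein induced by hypoxia, was at 32.7 ppm in control and 12.4 in paused cells (log2 ratio -1.40), and Ero1l, an oxidase of the endoplasmic reticulum, was at 77.1 ppm in control and 31.8 in paused cells (log2 ratio -1.28). Pdk1, pyruvate dehydrogenase kinase 1, was the higher one, at 84.5 ppm in control and 139 in paused cells (log2 ratio 0.72). Without the length trend it fell short of 1.5-fold, and the median of the 14 targets was -0.45.

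Cholesterol is built from acetyl-CoA by enzymes that SREBP2 controls as a group. Of 23 genes, 14 were lower (60.9%) and 0 higher, with a median of -0.64 and of -0.62 without the length trend. Idi1, isopentenyl diphosphate isomerase, was at 106 ppm in control and 26.8 in paused cells (log2 ratio -1.98, combined SE 0.08). Msmo1, a sterol methyl oxidase, was at 36.9 ppm in control and 12.4 in paused cells (log2 ratio -1.58). Hmgcs1, the synthase at the start of the pathway, was at 213 ppm in control and 90.8 in paused cells (log2 ratio -1.23). Srebf2, which codes for SREBP2, was at 183 ppm in control and 143 in paused cells (log2 ratio -0.35). The one member above its control level was Sc5d, a desaturase of the late steps, at 13.6 ppm in control and 17.4 in paused cells (log2 ratio 0.36), and Lss was level at a log2 ratio of -0.02.

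The classical 10-letter sterol regulatory element, searched on both strands without mismatches, was in the window of 0 of 16 cholesterol genes with one, and in 0.0718% of the described genes. A CCAAT box, to which the factor NFY binds beside SREBP, was in 15 of the 16, against 44.2% of the described genes and 37.4% of all windows. It was searched as CCAAT on both strands. The median log2 ratio of the 15 was -0.47, and the gene without it had -0.64. Stretches before the start of 3 genes with wide decreases show it in capitals, as CCAAT or as its complement ATTGG.
Idi1 (chr13:8885506-8885605, plus strand): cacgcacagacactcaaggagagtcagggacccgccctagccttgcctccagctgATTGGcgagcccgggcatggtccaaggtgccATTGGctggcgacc
Msmo1 (chr8:64733582-64733681, minus strand): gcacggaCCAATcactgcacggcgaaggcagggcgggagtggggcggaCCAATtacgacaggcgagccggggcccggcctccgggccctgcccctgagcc
Hmgcs1 (chr13:119690251-119690350, plus strand): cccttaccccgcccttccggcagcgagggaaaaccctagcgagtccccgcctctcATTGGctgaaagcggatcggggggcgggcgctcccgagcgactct
The letters were also frequent in the mitosis list, in 17 of 21 windows, whose median ratio was -0.04.

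Fatty acid synthesis had 8 of 21 genes lower (38.1%) and 2 higher, with a median of -0.31. Fasn, fatty acid synthase, was at 551 ppm in control and 308 in paused cells (log2 ratio -0.84). Acly, which supplies cytosolic acetyl-CoA, was at 508 ppm in control and 322 in paused cells (log2 ratio -0.66). Scd2, a desaturase, was at 173 ppm in control and 70.3 in paused cells (log2 ratio -1.30), and Fads2, another, at 29.8 ppm in control and 11.5 in paused cells (log2 ratio -1.38). Fads1 went the other way, at 34.1 ppm in control and 57.7 in paused cells (log2 ratio 0.76). Fatty acid oxidation had 3 of 21 genes higher and 2 lower, near the background, with a median of 0.08. Its gatekeeper Cpt1a, the carnitine transferase of the outer mitochondrial membrane, was at 34.2 ppm in control and 116 in paused cells (log2 ratio 1.76, combined SE 0.10). Acadm, the medium-chain dehydrogenase, was at 134 ppm in control and 80.1 in paused cells (log2 ratio -0.74).

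Pparg, which the title of the series names as a driver of lipid metabolism, lay under the minimum at 1.04 ppm in control and 1.93 in paused cells (log2 ratio 0.89). Of 13 lipid droplet and PPAR genes at the minimum, 2 were higher (15.4%) and 3 lower (23.1%), against 15.6% and 11.4% of all genes. Fabp3, a fatty acid binding protein, was at 55.2 ppm in control and 189.9 in paused cells (log2 ratio 1.78, combined SE 0.13). Plin2, which coats lipid droplets, was at 22.7 ppm in control and 41.6 in paused cells (log2 ratio 0.87). Fabp5 was at 24.8 ppm in control and 9.07 in paused cells (log2 ratio -1.45), and Angptl4, an inhibitor of lipoprotein lipase, at 16.0 ppm in control and 6.10 in paused cells (log2 ratio -1.39). With so few genes, and a share of higher ones near the background, these counts are no result about PPAR targets.

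The proteasome degrades ubiquitin-tagged proteins, and its subunit genes are known to move as a group. Of 31 genes, 19 were lower (61.3%) and 0 higher, with a median of -0.66, and all 31 had a negative log2 ratio. These are short transcripts, and without the length trend the median was -0.38 and 8 of the 31 were lower. Psmb3, a subunit of the core, was at 147 ppm in control and 69.5 in paused cells (log2 ratio -1.08, combined SE 0.05). Psmd14, the deubiquitinase of the lid, was at 163 ppm in control and 79.7 in paused cells (log2 ratio -1.03). Psmd4, a ubiquitin receptor, was at 188 ppm in control and 172 in paused cells (log2 ratio -0.12), nearest to 0 in the list. Summed over the list, the level was 6307 ppm in control and 4255 in paused cells.

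Of the respiratory chain genes encoded in the nucleus, 27 of 52 were lower (51.9%) and 0 higher. The median was -0.60. Without the length trend it was -0.28, and 9 of the 52 were lower. Atp5g1, a ring subunit of ATP synthase, was at 158 ppm in control and 47.1 in paused cells (log2 ratio -1.75, combined SE 0.06), and its paralog Atp5g3 at 244 ppm in control and 121 in paused cells (log2 ratio -1.01). Uqcrq, of complex III, was at 62.0 ppm in control and 20.5 in paused cells (log2 ratio -1.60). Cox7a2, of complex IV, was at 76.0 ppm in control and 31.6 in paused cells (log2 ratio -1.27). Just 3 of the 52 genes had a positive log2 ratio, among them Sdha of complex II, the highest of the list at 256 ppm in control and 287 in paused cells (log2 ratio 0.16), and Ndufs1 of complex I, at 147 ppm in control and 157 in paused cells (log2 ratio 0.09). The 13 messages encoded in mitochondrial DNA had a median of -0.23 and a median combined SE of 0.23. If the means pool 4 wild-type and 8 knockout libraries, the median log2 ratio was -0.10 in wild-type and -0.30 in knockout cells. Of the 13, 3 were lower (23.1%) and 0 higher. The lower ones were ND1, at 2047 ppm in control and 1205 in paused cells (log2 ratio -0.76), ND2, at 988 ppm in control and 567 in paused cells (log2 ratio -0.80), and ND3, at 191 ppm in control and 103 in paused cells (log2 ratio -0.89), while COX1 was at 6349 ppm in control and 5908 in paused cells (log2 ratio -0.10). Mitochondrial ribosomal protein genes had 18 of 42 lower (42.9%) and 0 higher, with a median of -0.50. Without the trend the median was -0.34, and 12 of the 42 were lower. Mrps12 was at 35.7 ppm in control and 13.5 in paused cells (log2 ratio -1.40) and Mrpl12 at 112 ppm in control and 53.4 in paused cells (log2 ratio -1.07), whereas Mrps2 was at 124 ppm in control and 165 in paused cells (log2 ratio 0.41).

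Chaperones of the heat shock and unfolded protein responses had 16 of 27 genes lower (59.3%) and 0 higher, with a median of -0.71 and of -0.56 without the length trend. Hspa5, which codes for the chaperone BiP, was at 681 ppm in control and 214 in paused cells (log2 ratio -1.67, combined SE 0.06). Hsp90b1, its Hsp90 family member, was at 867 ppm in control and 301 in paused cells (log2 ratio -1.53, combined SE 0.08). Calr, calreticulin, was at 761 ppm in control and 300.5 in paused cells (log2 ratio -1.34). Manf, a secreted factor of the stressed reticulum, was at 134 ppm in control and 44.3 in paused cells (log2 ratio -1.60), and Pdia6, a disulfide isomerase, at 317 ppm in control and 108 in paused cells (log2 ratio -1.55). Xbp1, the transcription factor of this response, was at 80.6 ppm in control and 51.0 in paused cells (log2 ratio -0.66). In mitochondria, the chaperonin gene Hspd1 was at 1529 ppm in control and 644 in paused cells (log2 ratio -1.25). The inducible Hspa1a and Hspa1b, near-identical copies that may share reads, had log2 ratios of -1.87 and -1.89 at low levels. The abundant cytosolic Hspa8 and Hsp90ab1 were within 1.5-fold, as given above.

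Ribosomal proteins are translated from mRNAs whose translation mTOR controls through their first bases, and their transcript levels differed little. None of the 78 cytosolic genes reached 1.5-fold in either direction (0 of 78, against 15.6% and 11.4% of all genes). Their median was 0.04, and their log2 ratios ran from -0.37 for Rpl27 to 0.45 for Rpl10a. As short transcripts they stood above genes of like length, and without the length trend the median was 0.38 and 7 of the 78 were higher. Translation factors had 3 higher and 3 lower of 31, with a median of -0.04. Eif4a2, a helicase of initiation, was at 472 ppm in control and 869 in paused cells (log2 ratio 0.88, combined SE 0.13), while its paralog Eif4a1 was at 2283 ppm in control and 1593 in paused cells (log2 ratio -0.52). Eif4b was at 888 ppm in control and 1545 in paused cells (log2 ratio 0.80). Eif5a was at 1009 ppm in control and 582 in paused cells (log2 ratio -0.79) and Eef1d at 376 ppm in control and 219 in paused cells (log2 ratio -0.78). Like the ribosomal protein genes, Eef1a1, Eef2 and Eif4b belong to the mRNAs under mTOR control of translation.

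Ribosome biogenesis had 4 of 38 genes lower (10.5%), near the background, and 0 higher, with a median of -0.18. This count was 2 of 37 without the length trend and 6 of 38 with the median gene set to 0. The lower ones were Nop16, at 77.9 ppm in control and 29.0 in paused cells (log2 ratio -1.43), Nhp2, at 222 ppm in control and 125 in paused cells (log2 ratio -0.83), Bop1, at 191 ppm in control and 121 in paused cells (log2 ratio -0.65), and Fbl, at 312 ppm in control and 205 in paused cells (log2 ratio -0.61). Polr1a, the largest subunit of RNA polymerase I, was at 269.7 ppm in control and 339 in paused cells (log2 ratio 0.33). Host transcripts of small nucleolar RNAs had 2 of 13 higher (15.4%), near the background, and 3 lower (23.1%). Snhg3 was at 26.5 ppm in control and 9.41 in paused cells (log2 ratio -1.5) and Snhg5 at 80 ppm in control and 36.8 in paused cells (log2 ratio -1.12), whereas Snhg1 was at 101 ppm in control and 173 in paused cells (log2 ratio 0.77).

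Lysosomes degrade what autophagy and endocytosis bring, and TFEB with TFE3 drives their genes when mTOR is inactive. Of 36 genes, 19 were higher (52.8%) and 1 lower, with a median of 0.62 and of 0.64 without the length trend. Hexa, a subunit of hexosaminidase, was at 26.0 ppm in control and 127 in paused cells (log2 ratio 2.29, combined SE 0.09), a 4.90-fold higher level. Ctsa, cathepsin A, was at 56.4 ppm in control and 233 in paused cells (log2 ratio 2.05, combined SE 0.09). Mcoln1, the calcium channel of the lysosome, was at 18.9 ppm in control and 61.4 in paused cells (log2 ratio 1.70). Ctsl, cathepsin L, was at 78.0 ppm in control and 217 in paused cells (log2 ratio 1.48). Gaa, which degrades glycogen, was at 64.1 ppm in control and 146 in paused cells (log2 ratio 1.19), and Tpp1, a peptidase, at 51.0 ppm in control and 119.5 in paused cells (log2 ratio 1.23). Lamp1, a membrane protein of the organelle, was at 306 ppm in control and 561 in paused cells (log2 ratio 0.88). Of the proton pump, Atp6v0d1 was at 74.3 ppm in control and 166 in paused cells (log2 ratio 1.16), Atp6v1a at 129.9 ppm in control and 148 in paused cells (log2 ratio 0.19) and Atp6v0e, the lower gene, at 41.2 ppm in control and 26.0 in paused cells (log2 ratio -0.67). The factors themselves differed little, with log2 ratios of 0.02 for Tfeb, -0.13 for Tfe3 and -0.32 for Mitf.

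TFEB family factors bind the E-box CACGTG, often within the longer CLEAR element, a 10-letter palindrome that contains it. The E-box was in the window of 12 of 28 lysosomal genes with one (42.9%), against 12.5% of the described genes and 7.15% of all windows. The median log2 ratio was 0.76 in lysosomal genes with the E-box and 0.50 in those without. The E-box was also frequent in lists that were not higher. It was in 8 of 22 translation factor windows (36.4%), whose median ratio was -0.03, and in 4 of 12 tRNA synthetase windows (33.3%), all 4 with a negative ratio. The full CLEAR string was in 0 of the 28. It was in 74 of the described genes, of which 56 had a positive and 18 a negative log2 ratio, and their median was 0.33. Over all described genes 55.7% had a positive log2 ratio. Stretches before the start of 3 lysosomal genes with wide increases carry the E-box in capitals.
Ctsa (chr2:164833673-164833772, plus strand): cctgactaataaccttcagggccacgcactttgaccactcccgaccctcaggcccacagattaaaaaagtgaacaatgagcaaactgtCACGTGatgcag
Mcoln1 (chr8:3500401-3500500, plus strand): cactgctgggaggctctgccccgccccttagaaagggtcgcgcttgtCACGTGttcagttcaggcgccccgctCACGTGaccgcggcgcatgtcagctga
Ctsl (chr13:64370671-64370770, minus strand): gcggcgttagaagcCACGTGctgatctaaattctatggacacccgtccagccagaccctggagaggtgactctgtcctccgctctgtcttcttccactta
The same letters are read by the Myc family and by others, so a match does not name a factor.

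Autophagy genes had 9 of 33 higher (27.3%) and 1 lower, with a median of 0.36 and of 0.25 without the length trend. Wipi1, which acts at the forming autophagosome, was at 4.41 ppm in control and 16.4 in paused cells (log2 ratio 1.89, combined SE 0.12). Optn, a receptor for cargo, was at 5.70 ppm in control and 13.7 in paused cells (log2 ratio 1.26). Gabarap, of the Atg8 family, was at 44.2 ppm in control and 87.5 in paused cells (log2 ratio 0.98). Sqstm1, the receptor known as p62, was at 157 ppm in control and 249 in paused cells (log2 ratio 0.66). Ulk1, the kinase that starts autophagy and that mTOR restrains, was at 321 ppm in control and 492 in paused cells (log2 ratio 0.62). The lower one, Bnip3, a receptor for mitochondria and also a HIF1 target, was at 50.2 ppm in control and 21.4 in paused cells (log2 ratio -1.23). Most of the conjugation genes, such as Atg5, Atg7 and Atg16l1, were within 1.5-fold.

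The list of mTOR pathway genes had 13 of 35 genes higher (37.1%) and 6 lower (17.1%), with a median of 0.39. Without the length trend the median was 0.28, and 7 of 34 were higher and 4 lower. One of the 13 is Pdk1, which codes here for pyruvate dehydrogenase kinase 1 and is not a component of the pathway. Upstream, the insulin receptor gene Insr was at 10.2 ppm in control and 22.3 in paused cells (log2 ratio 1.13). Irs2, its adaptor, was at 23.7 ppm in control and 58.7 in paused cells (log2 ratio 1.31, combined SE 0.27). Igf1r, the receptor of insulin-like growth factor, was at 29.1 ppm in control and 49.6 in paused cells (log2 ratio 0.77). Of the complexes, Rictor was at 56.2 ppm in control and 92.6 in paused cells (log2 ratio 0.72), Mtor at 102 ppm in control and 152 in paused cells (log2 ratio 0.59) and Rptor at 89.1 ppm in control and 80.4 in paused cells (log2 ratio -0.15). Deptor, an inhibitor within both complexes, was at 35.3 ppm in control and 64.9 in paused cells (log2 ratio 0.88), and Tsc1, of the complex that switches mTOR off, at 40 ppm in control and 69.1 in paused cells (log2 ratio 0.79). At the lysosome, Fnip1, a partner of folliculin, was at 32.6 ppm in control and 102 in paused cells (log2 ratio 1.64, combined SE 0.08). Flcn, folliculin, was at 45.1 ppm in control and 77.6 in paused cells (log2 ratio 0.78), and Rragc, a GTPase that it acts on, at 39.9 ppm in control and 75.8 in paused cells (log2 ratio 0.93). The 6 lower genes were Ddit4, Gatsl3, Sesn1, Sesn2, Eif4ebp1 and Rraga, of which the first 4 code for inhibitors that respond to stress or amino acids. Gatsl3, an older symbol of the arginine sensor gene Castor1, was at 53.7 ppm in control and 19.7 in paused cells (log2 ratio -1.45). Sesn2, a leucine sensor and ATF4 target, was at 134 ppm in control and 80.4 in paused cells (log2 ratio -0.73). Eif4ebp1, a repressor of translation that mTOR inactivates, was at 218 ppm in control and 137 in paused cells (log2 ratio -0.67), while Eif4ebp2 was at 334 ppm in control and 449 in paused cells (log2 ratio 0.43).

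FOXO factors are held out of the nucleus by the kinase AKT. Of 18 of their targets, 8 were higher (44.4%) and 1 lower, with a median of 0.49 and of 0.47 without the length trend. The muscle ubiquitin ligase genes Trim63 and Fbxo32 were at low levels, with log2 ratios of 1.30 and 1.27. Ccng2, a cyclin of arrested cells, was at 8.60 ppm in control and 18.7 in paused cells (log2 ratio 1.12). Btg1, an inhibitor of proliferation, was at 29.2 ppm in control and 51.8 in paused cells (log2 ratio 0.83). Insr, Irs2 and Rictor belong to this list too, and Cdkn1b, an inhibitor of cyclin-dependent kinases, was at 27.5 ppm in control and 40.3 in paused cells (log2 ratio 0.55), just short of 1.5-fold.

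Of the cell cycle lists, G1 cyclins and their regulators had 8 of 21 genes lower (38.1%) and 0 higher, with a median of -0.29. Ccnd1, cyclin D1, was at 157 ppm in control and 41.6 in paused cells (log2 ratio -1.91, combined SE 0.12). Ccne1, cyclin E1, was at 289 ppm in control and 106 in paused cells (log2 ratio -1.45, combined SE 0.10). Cdc25a, the phosphatase that frees their kinases, was at 147 ppm in control and 85.3 in paused cells (log2 ratio -0.79). Cdk4 was at 389 ppm in control and 399 in paused cells (log2 ratio 0.04). DNA replication genes had 6 of 33 lower (18.2%) and 0 higher, with a median of -0.09. Tk1, thymidine kinase, was at 41.0 ppm in control and 15.6 in paused cells (log2 ratio -1.39), and Pcna, the sliding clamp, at 402 ppm in control and 203 in paused cells (log2 ratio -0.98). The 7 listed Mcm genes had log2 ratios between -0.13 and 0.12. Mitotic genes had 2 lower and 1 higher of 26, below the background in both directions, with a median of -0.04. The higher one was Cenpe, a kinetochore motor, at 144 ppm in control and 250 in paused cells (log2 ratio 0.80). It fell short of 1.5-fold without the length trend. The proliferation marker Mki67 was at 233 ppm in control and 334 in paused cells (log2 ratio 0.52).

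Of the Myc family, Mycn was at 271 ppm in control and 163 in paused cells (log2 ratio -0.73, combined SE 0.08), with -0.51 in wild-type and -0.93 in knockout cells if the means pool 4 and 8 libraries, and Myc at 76.0 ppm in control and 68.9 in paused cells (log2 ratio -0.14). Mnt, an antagonist of Myc, was at 69.6 ppm in control and 139.9 in paused cells (log2 ratio 1.01), and Mga, another protein that pairs with Max, at 219 ppm in control and 353 in paused cells (log2 ratio 0.69). Targets of p53 had 7 of 25 lower (28.0%) and 2 higher, with a median of -0.26 and of -0.14 without the length trend. Split by genotype as for Mycn, the median was -0.08 in wild-type and -0.34 in knockout cells. Trp53 was at 504 ppm in control and 466 in paused cells (log2 ratio -0.11). Tigar, which curbs glycolysis, was at 81.2 ppm in control and 41.4 in paused cells (log2 ratio -0.97), Cdkn1a, which codes for p21, at 34.4 ppm in control and 22.0 in paused cells (log2 ratio -0.64), and Ddb2, of DNA repair, at 3.30 ppm in control and 7.44 in paused cells (log2 ratio 1.17). Of the replication-dependent histone genes, a class whose transcripts lack a poly(A) tail, 7 of 29 in both tables reached the minimum, and 1 of these was past 1.5-fold.

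Naive pluripotency factors had 4 of 21 higher (19.0%) and 4 lower (19.0%), against 15.6% and 11.4% of all genes, with a median of 0.11. If the means pool 4 wild-type and 8 knockout libraries, 4 were higher and 2 lower in wild-type cells, against 4 higher and 5 lower in knockout cells. Of the higher ones, Tbx3 was at 164 ppm in control and 307 in paused cells (log2 ratio 0.90, combined SE 0.08). Esrrb was at 408 ppm in control and 719 in paused cells (log2 ratio 0.82, combined SE 0.09). Klf4 was at 191 ppm in control and 336 in paused cells (log2 ratio 0.81, combined SE 0.08), and Tfcp2l1 at 287 ppm in control and 477 in paused cells (log2 ratio 0.73). On the low side, Nanog was at 652 ppm in control and 426 in paused cells (log2 ratio -0.61, combined SE 0.09). Dppa3 was at 25.8 ppm in control and 10.4 in paused cells (log2 ratio -1.31) and Dppa5a at 1096 ppm in control and 561 in paused cells (log2 ratio -0.96). Sox15 was at 17.4 ppm in control and 10.9 in paused cells (log2 ratio -0.67). Core factors were close to level, with Pou5f1 at 1123 ppm in control and 996 in paused cells (log2 ratio -0.17) and Sox2 at 522 ppm in control and 568 in paused cells (log2 ratio 0.12). The core and formative list as a whole had 5 of 20 lower (25%) and 0 higher, with a median of -0.23. The lower ones were Sox3, at 9.08 ppm in control and 2.87 in paused cells (log2 ratio -1.66), Lef1, at 16.6 ppm in control and 5.68 in paused cells (log2 ratio -1.55), Fgf4, at 212 ppm in control and 105 in paused cells (log2 ratio -1.01), Foxd3, at 45.6 ppm in control and 23.1 in paused cells (log2 ratio -0.98), and Dnmt3b, a DNA methyltransferase, at 489 ppm in control and 324 in paused cells (log2 ratio -0.59).

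In the LIF pathway 3 of 11 genes were higher (27.3%) and 0 lower, with a median of 0.27. Pim1, a kinase gene that STAT3 induces, was at 103 ppm in control and 270.2 in paused cells (log2 ratio 1.39, combined SE 0.09), and Pim3 at 156 ppm in control and 290.4 in paused cells (log2 ratio 0.90). Socs3, the feedback inhibitor, was at 99.2 ppm in control and 90.4 in paused cells (log2 ratio -0.13). Feedback genes of the ERK kinase had 5 of 21 higher (23.8%) and 1 lower. Dusp4, a phosphatase of that pathway, was at 29.0 ppm in control and 76.4 in paused cells (log2 ratio 1.40, combined SE 0.26). Spry4, an inhibitor of receptor signalling, was at 108 ppm in control and 267 in paused cells (log2 ratio 1.31, combined SE 0.12), and Spry1 at 11.8 ppm in control and 24.2 in paused cells (log2 ratio 1.04). Egr1, the immediate early gene, was the lower one, at 18.5 ppm in control and 12.3 in paused cells (log2 ratio -0.59). It lay just past 1.5-fold. If the means pool 4 wild-type and 8 knockout libraries, 0 of the 21 were lower in wild-type cells. Dusp6, another common readout of ERK, was at 49.3 ppm in control and 54.7 in paused cells (log2 ratio 0.15).

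Nodal and Smad genes, the subject of the knockout lines, had 3 of 16 higher and 1 lower, with a median of 0.13. Nodal itself was at 103 ppm in control and 75.9 in paused cells (log2 ratio -0.44). Acvr1b, a type I receptor for Nodal and activin, was at 26.7 ppm in control and 54.9 in paused cells (log2 ratio 1.04, combined SE 0.07), and Acvr2b, a type II receptor, at 76.4 ppm in control and 122 in paused cells (log2 ratio 0.67). Smad7, which blocks the receptors, was at 60.6 ppm in control and 103 in paused cells (log2 ratio 0.77, combined SE 0.09). Smad3, the partner of Smad2, was at 25.7 ppm in control and 14.9 in paused cells (log2 ratio -0.79, combined SE 0.11) and the lower gene, whereas Smad4 was at 83.9 ppm in control and 94.1 in paused cells (log2 ratio 0.17). The targets Lefty1 and Lefty2 were at log2 ratios of 0.23 and 0.06. As 2 of the 3 genotypes are labelled Smad2 knockouts, the pooled levels of these genes mix cells of different genotype. Under the assumption that each mean pools 4 wild-type and 8 knockout libraries, the median of this list was 0.23 in wild-type and 0.07 in knockout cells. Smad3 was past 1.5-fold only in the knockout cells of that split, with log2 ratios of -0.46 in wild-type and -0.95 in knockout cells.

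BMP signalling, which keeps Id genes on, had 4 of 10 genes lower (40.0%) and 1 higher, with a median of -0.45 and of -0.33 without the length trend. Id1 was at 126 ppm in control and 54.2 in paused cells (log2 ratio -1.21, combined SE 0.10), Id2 at 76.2 ppm in control and 50.1 in paused cells (log2 ratio -0.60) and Id3 at 84.6 ppm in control and 51.7 in paused cells (log2 ratio -0.71), whereas the ligand gene Bmp4 was at 21.8 ppm in control and 38.0 in paused cells (log2 ratio 0.80, combined SE 0.13). Split in the same way, Id1 had a log2 ratio of -1.57 in wild-type and -1.11 in knockout cells. Wnt effectors had 3 of 11 lower and 0 higher. Besides Lef1 and Ccnd1 these included Notum, which releases Wnt proteins of their lipid, at 40.2 ppm in control and 26.2 in paused cells (log2 ratio -0.61), while Axin2, the usual readout of the pathway, was at 22.7 ppm in control and 24.6 in paused cells (log2 ratio 0.11).

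Genes of the two-cell-like state, a rare state of embryonic stem cells that resembles the embryo at its first cleavage, were lower in 9 of 10 cases (90.0%) and higher in 0, with a median of -1.39 and of -1.23 without the length trend. Zscan4c was at 538 ppm in control and 207 in paused cells (log2 ratio -1.37, combined SE 0.19), and Zscan4f at 562 ppm in control and 213 in paused cells (log2 ratio -1.40, combined SE 0.20). Zscan4d was at 216 ppm in control and 70.8 in paused cells (log2 ratio -1.61, combined SE 0.22). The listed Zscan4 genes, and likewise Usp17la and Usp17lb, are near-identical copies that may share reads, so they may not be independent of each other. Gm5662 was at 218 ppm in control and 101 in paused cells (log2 ratio -1.11). Duxf3, the symbol given to the Dux gene that switches the state on, was at 5.92 ppm in control and 5.69 in paused cells (log2 ratio -0.06) and was the exception.

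Meiotic and germline genes lay on the high side, with 10 of 22 higher (45.5%) and 1 lower and a median of 0.55 with or without the length trend. Taf7l, a paralog of a subunit of TFIID that acts in the testis, was at 4.78 ppm in control and 30.4 in paused cells (log2 ratio 2.67, combined SE 0.14). Sycp3, of the axis of meiotic chromosomes, was at 8.55 ppm in control and 30.2 in paused cells (log2 ratio 1.82, combined SE 0.14). Stag3, a meiotic cohesin, was at 40.6 ppm in control and 100.3 in paused cells (log2 ratio 1.30), and Ddx4, the germ cell helicase, at 27.4 ppm in control and 48.6 in paused cells (log2 ratio 0.83). The lower one was Rhox5, at 85.2 ppm in control and 54.7 in paused cells (log2 ratio -0.64). Stra8, which starts meiosis, was at 19.8 ppm in control and 14.6 in paused cells (log2 ratio -0.44), and Dazl at 24.3 ppm in control and 26.8 in paused cells (log2 ratio 0.14). The E-box CACGTG, which the germline repressor complex of Mga and Max also reads, was in the window of 9 of 19 of these genes (47.4%), against 12.5% of the described genes. Each of the 9 had a positive log2 ratio, as had 16 of all 22 genes of the list and 637 of the 1047 described genes with the E-box.

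Lineage lists differed in how many genes reached the minimum. Of 19 trophoblast and epithelial genes 15 did, with 1 higher (6.67%) and 0 lower. Of 22 primitive streak genes 4 reached the minimum, with 0 past 1.5-fold, and T was at 6.92 ppm in control and 6.68 in paused cells (log2 ratio -0.05, combined SE 0.64). Neuroectoderm genes had 3 of 7 lower and 0 higher, with Tubb3, a neuronal tubulin, at 126 ppm in control and 43.4 in paused cells (log2 ratio -1.54, combined SE 0.09) and Pax6 at 9.39 ppm in control and 5.72 in paused cells (log2 ratio -0.72). Dab2, an adaptor of primitive endoderm, was at 11.8 ppm in control and 27.8 in paused cells (log2 ratio 1.24, combined SE 0.20), while the basement membrane genes Lama1, Lamc1 and Col4a1 were within 1.5-fold. Fn1, fibronectin, was at 579 ppm in control and 1341 in paused cells (log2 ratio 1.21, combined SE 0.11), and Cdh1, E-cadherin, at 529.7 ppm in control and 483 in paused cells (log2 ratio -0.13). Epithelial keratins Krt8 and Krt18 had log2 ratios of 0.18 and 0.53 with combined SEs of 0.55 and 0.52.

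DNA methylation genes had 2 of 17 higher and 2 lower, but 0 higher and 1 lower without the length trend. Tet3 was at 14.8 ppm in control and 25.1 in paused cells (log2 ratio 0.77), and Mbd3, of the NuRD complex, at 156 ppm in control and 101 in paused cells (log2 ratio -0.63). Polycomb and H3K9 genes had 3 of 25 higher (12.0%) and 0 lower, but 2 higher and 2 lower with the median gene set to 0. Ezh1, the Polycomb methyltransferase of resting cells, was at 33.8 ppm in control and 95.9 in paused cells (log2 ratio 1.5, combined SE 0.07), while Ezh2, that of dividing cells, was at 201 ppm in control and 244 in paused cells (log2 ratio 0.29). Trim28, a corepressor, was at 3041 ppm in control and 2071 in paused cells (log2 ratio -0.55). Imprinted genes had 3 higher and 3 lower of 22. Igf2r, the receptor that clears IGF2 and sorts lysosomal enzymes, was at 104 ppm in control and 253 in paused cells (log2 ratio 1.29, combined SE 0.07), and Phlda2, which restrains placental growth, at 30.1 ppm in control and 12.1 in paused cells (log2 ratio -1.31). Interferon genes had 1 higher and 1 lower of 12.

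**Figure D5:**
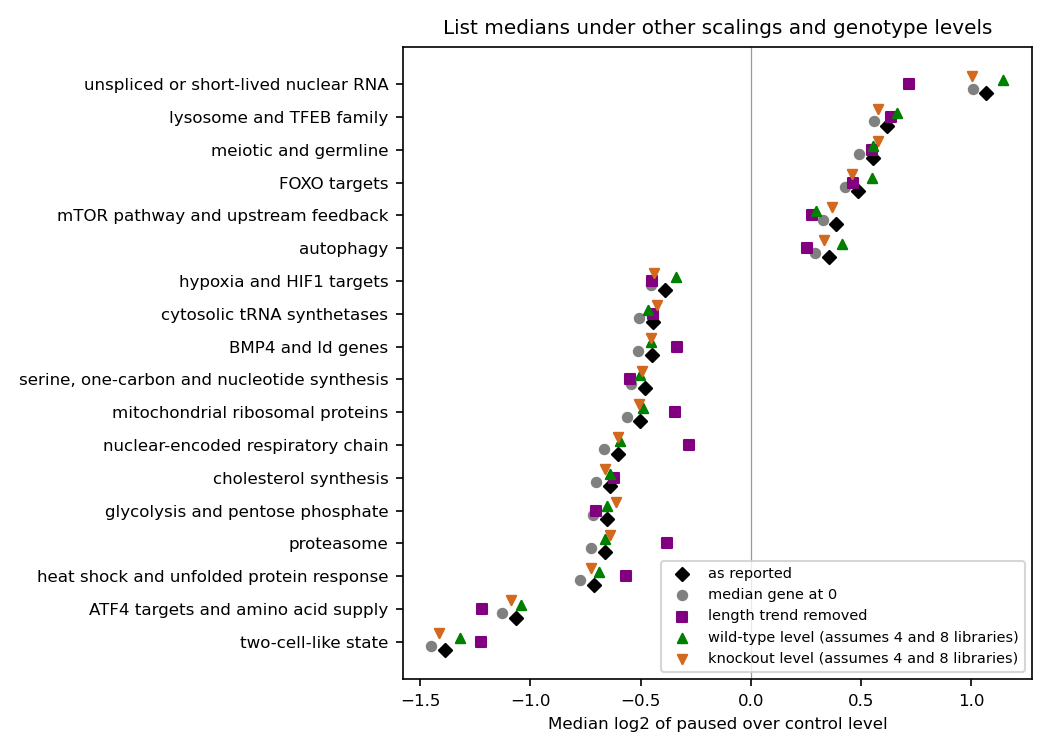
Median log2 ratio (horizontal) of the 18 lists with at least 4 genes whose median is at least 0.35 away from 0, as reported and with the median gene set to 0, the length trend removed, or the level computed for wild-type or knockout cells. Each list keeps its side of 0; the proteasome goes from -0.66 to -0.38 and the respiratory chain from -0.60 to -0.28 without the length trend, while lysosomal genes stay near 0.6.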

How the data were processed

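Poly(A) RNA of 24 libraries was measured in 6 groups of 4. Per the submitters' processing notes the tools included FastQC, Trim Galore, HISAT2, featureCounts and DESeq2 with build mm10. Per the labels' protocols, the library kit kept strand and mRNA was selected first, and both 150 ng and 1 microgram are given as the input. The strand setting of the counting is not given in the sources used here, so antisense and overlapping genes may share reads.

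The authors deposited 2 results tables, 1 per condition. Per the file headers, each holds a mean of normalized counts, which is a signal value averaged by the authors, a log2 ratio of 2 genotype groups with its standard error, a statistic (a score), and a p-value with its adjusted value. The tables were normalized separately by the authors. Their control means sum to 4.61e+07 and their paused means to 4.43e+07. The depth of each library is unknown, and 646 and 845 genes appear in 1 table alone, with highest levels of 0.808 and 0.981 ppm.

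Levels in ppm (parts in 1000000 of a table's sum), log2 ratios and combined standard errors were computed with Python 3.11.15, numpy 2.4.6, pandas 2.3.3 and scipy 1.17.1. No test of the condition was possible, so counts past 1.5-fold and list medians are descriptive. The knockout change in paused minus that in control cells, which equals the difference between genotypes in the effect of pausing, was tested over its combined SE (two-sided normal p, Benjamini-Hochberg over 19134 genes). The tables do not name the groups, and the knockout direction was assumed from the negative sign of Smad2. Steps were run on simulated data made under the same assumption of 4 wild-type and 8 knockout libraries. This checks the arithmetic only, not that assumption or the separate normalization. Transcript length and GC content came from the longest GENCODE M21 transcript of each symbol (96.0% of genes), and its trend was subtracted as a running median (50 bins). Promoter windows were RefSeq's (76.2% of genes). Genes named in the text are the 12 widest in each direction with a combined SE of at most 0.5, the 10 with the highest levels, Smad2, Pparg, 2 on either side of the minimum, and per list up to 8 with the widest ratio and 4 nearest its median; others were chosen after their values were seen. The members and the lists were chosen with earlier results of these data known. Some genes that this rule names are not reported here.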

Additional observations from a re-analysis of the deposited data

Results flagged for a closer look

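For 275 of 19134 genes (1.44%), 235 of them among the 10958 described, the knockout change differed between paused and control cells at an adjusted p under 0.05. This is the same as a difference between genotypes in the effect of pausing, apart from the scaling of the tables. It was computed from the authors' deposited tables as the paused minus the control change over its combined SE, as a two-sided test with p-values from the normal distribution, adjusted by Benjamini-Hochberg. The deposited errors are taken between libraries, and the libraries of a group are repeats with the same genotype label. The p-values therefore treat repeats of a line as independent and do not measure spread between separately made lines. A difference between lines and an effect of Smad2 loss cannot be told apart by them. Of the genes named above, 15 were among the 275, and their values follow with the SE of the difference. Which libraries show the direction is not known, and which genotype is the higher one rests on the sign read from Smad2.

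Positive differences, where knockout cells lay higher relative to wild type when paused, were led by Trim30c at 8.21 (SE 2.25, adjusted p = 0.0271). Its knockout change was -8.64 in control and -0.43 in paused cells. Its paused level, given above, was near the floor, so a knockout change there could hardly be measured. Scd2 had a difference of 0.73 (SE 0.16, adjusted p = 0.00313). For Arhgef28 it was 0.61 (SE 0.10, adjusted p = 1.53e-05), on a log2 ratio of 2.77. Phgdh differed by 0.49 (SE 0.11, adjusted p = 0.00171), so its decrease on pausing was the smaller one in knockout cells. The BMP target genes Id1 and Id3 had differences of 0.48 (SE 0.10, adjusted p = 0.000357) and 0.35 (SE 0.08, adjusted p = 0.00177). Vars and Eif4ebp2 had differences of 0.26 (SE 0.07, adjusted p = 0.0169) and 0.22 (SE 0.04, adjusted p = 0.000463).

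Negative differences included Smad3 at -0.48 (SE 0.11, adjusted p = 0.00604). Mycn had -0.40 (SE 0.08, adjusted p = 0.000963), with knockout changes of -0.66 in control and -1.06 in paused cells. Laptm5 had -0.39 (SE 0.12, adjusted p = 0.0483) and Igf2r -0.36 (SE 0.07, adjusted p = 0.000463). For the naive factor gene Klf4 the difference was -0.30 (SE 0.08, adjusted p = 0.0264), with knockout changes of 0.56 in control and 0.26 in paused cells. Ero1l and Manf, both of the endoplasmic reticulum, had -0.27 (SE 0.07, adjusted p = 0.0128) and -0.24 (SE 0.06, adjusted p = 0.00615).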

How the results depend on the processing

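The counts of genes past the fold were 1704 higher and 1250 lower. At 2-fold they were 545 and 380. A minimum of 20 ppm gave 965 higher and 804 lower genes, no minimum gave 4028 and 2694, and a minimum of 1 ppm gave 2616 higher. The other alternatives kept both counts within 1.5 times. Of the calls, 57.7% were higher; this share was 50.2% with no scaling between the tables, 49.2% with the median gene at 0 and 49.3% with a trimmed mean at 0. No list median of at least 1.5-fold, and no ratio of the 281 genes that the naming rule gave past 1.5-fold, took the other sign. Of these 281 genes, 216 stayed past it in the same direction under every alternative run on single genes. These were the scalings, the genotype levels, the pseudocount and the length trend, the last only for genes with an annotated length. The 2-fold threshold, the abundance minima and the limit on standard errors were not among them. Removing the length trend, chosen after seeing the data, took 43 below 1.5-fold. Of 48 lists, 12 changed the sign of their median under an alternative, each with a median of at most 0.19 in size as reported. The wild-type and knockout levels assume 4 and 8 libraries in each mean, under which 2953 of the 2954 called genes had the same sign in both. Both levels are computed from the pooled means that set the call, so this count is no check between genotypes. The exception, Nxf7, was named after its values were seen. No paired analysis was possible because the tables hold no value for a single library, and for the same reason no library could be left out. The unknown depth and the separate normalization limit every ratio here; a constant shift between conditions would move all of them alike.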
